A study of Mus musculus with 10 samples.

Results

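Mature migratory dendritic cell genes are the transcripts that a dendritic cell switches on when it stops sampling tissue and leaves for the lymph node. The 10 genes described here, out of 55414 gene identifiers in the count tables, were Ccr7, Ccl22, Ccl17, Fscn1, Cacnb3, Zfp366, Il2ra, Il4i1, Socs2 and Cd83. They were selected on the culture values themselves, for being lower in cultured cells that had engulfed apoptotic cells than in those that had not. The culture values are therefore given as a description, with no test, and a test is given only in the wound libraries.

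As background, maturing dendritic cells raise the chemokine receptor CCR7, which guides them along CCL19 and CCL21 into lymphatic vessels, and remodel their actin with fascin. They also secrete CCL17 and CCL22, which attract T cells bearing CCR4, and display CD83 and costimulatory proteins. Bone marrow grown with GM-CSF is known to give cells of macrophage and of dendritic cell character side by side. Skin holds its own dendritic cells, and those carrying antigen leave it through CCR7.

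The 4 groups were wound Eff+, wound Eff-, culture Eff+ and culture Eff-, where Eff+ cells were sorted by flow cytometry as having taken up apoptotic cells and Eff- cells as not having done so. Wound macrophages (3 Eff+ and 3 Eff- libraries) came from skin wounds at day 3 of LysMCreER/mTmG mice given tamoxifen for 6 days. Per the labels, all 6 wound libraries share this genotype and drug. In these mice a tamoxifen-dependent Cre expressed from the lysozyme M locus, which is active in neutrophils as well as in monocytes and macrophages, switches a membrane reporter. Culture macrophages (2 Eff+ and 2 Eff- libraries) were wild-type bone marrow cells grown for 7 days in GM-CSF and, per the labels, given apoptotic fibroblasts for 12 hours. The deposited column names of the culture Eff- libraries hold the letters NOAC, so whether those cells had met apoptotic fibroblasts is unclear. The column names of the culture Eff+ libraries also differ, with the letters ANDAC for library 1 and NACS for library 2, although the labels put both in Eff+, and this doubt touches each value of library 2 and each ratio within number 2. The labels read here give neither mouse age nor strain background.

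Total counts per library were 39735437 to 57308823 in the wound and 17622740 to 27261880 in culture. Culture Eff- library 1 stood apart, with counts on 44836 gene identifiers, against 35649 for culture Eff+ library 1 and 18171 to 19649 for the culture libraries numbered 2. Wound libraries numbered 2 stood apart in Lyz2, with 159484 counts in Eff+ and 345046 in Eff-, against 160 to 413 in the other 4. The labels name the same genotype for all wound libraries, and the reason for this difference was not tested. Macrophage markers were present throughout: the 10 on the list, which included Adgre1, Csf1r and C1qa, summed to 3310 to 4014 CPM in wound Eff+ libraries and 5689 to 7101 CPM in wound Eff- libraries. In culture they summed to 4538 and 8696 CPM in Eff+ libraries and to 1898 and 8499 CPM in Eff- libraries. CPM is each gene's count scaled to a common library size, with library sizes adjusted by the trimmed mean of M-values (TMM) within each table.

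In culture the mature migratory genes stood lower in Eff+ than in Eff- libraries. All 10 had a lower level in Eff+ in each of the 2 replicate numbers. Of the 9 with enough counts for the fit, 8 had both Eff+ libraries below both Eff- libraries, where 9.42% of all 14867 genes fitted did so. Since the culture contrast chose the genes, nothing is read from that count. In bulk libraries such as these, fewer mature dendritic cells and less of each transcript per cell cannot be told apart.

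**Figure D1:**
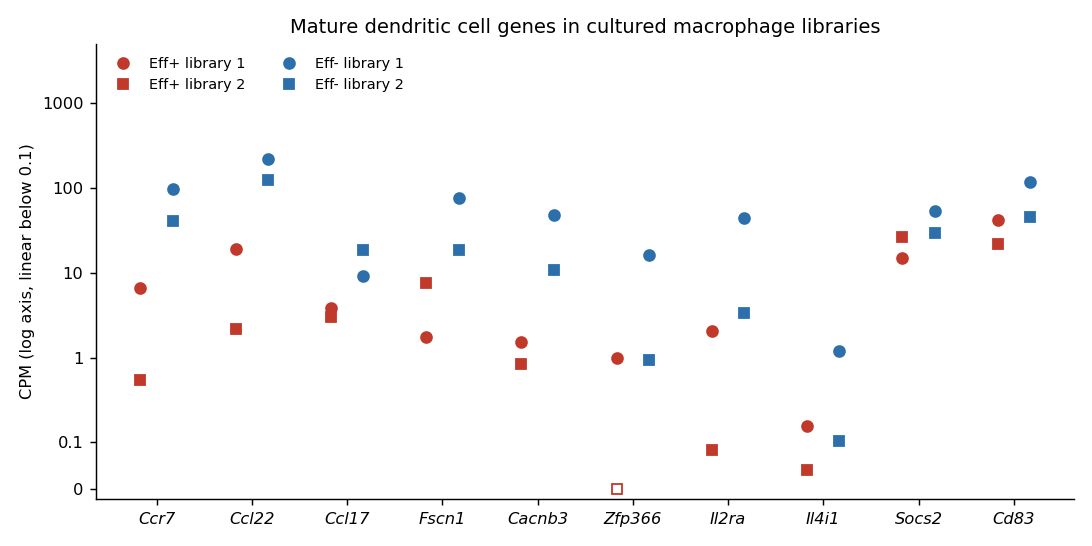
Level of each of the 10 genes in the 4 culture libraries, in CPM on a log axis that is linear below 0.1, with Eff+ libraries in red and Eff- libraries in blue; each point is 1 library and an open symbol is a level of 0. Ccr7 lay at 6.66 and 0.54 CPM in Eff+ and at 96.7 and 41.3 CPM in Eff-, while Socs2 and Cd83 stood closer together.

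The chemokine receptor and both chemokines were lower in culture Eff+ libraries. Ccr7 (ENSMUSG00000037944, chromosome 11, 99035022 to 99045903, minus strand, GRCm39), the lymph node homing receptor, had 6.66 and 0.54 CPM in culture Eff+ libraries 1 and 2, against 96.7 and 41.3 CPM in culture Eff- libraries 1 and 2. Its groups did not overlap, and the fitted log2 fold change was -4.26, or 19.1-fold lower in Eff+. Ccl22 (ENSMUSG00000031779, chromosome 8, 95472218 to 95478327, plus strand), a ligand of CCR4, had 19.0 and 2.20 CPM in Eff+ against 221 and 124 CPM in Eff-. The fitted log2 fold change of Ccl22 was -4.03, and it had the highest level of the 10 in both Eff- libraries. Ccl17 (ENSMUSG00000031780, chromosome 8, 95537081 to 95538664, plus strand), the other CCR4 ligand, lies 58753 bases downstream of Ccl22. Ccl17 had 3.85 and 2.99 CPM in Eff+ against 9.20 and 18.8 CPM in Eff-, with a fitted value of -2.03. It was the only member whose Eff- library 1 was below Eff- library 2.

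The genes of cell shape and of internal regulation were lower too, with library 1 of Eff- far above library 2. Fscn1 (ENSMUSG00000029581, chromosome 5, 142946098 to 142958940, plus strand) encodes fascin, which bundles actin in dendrites. Fscn1 had 1.73 and 7.52 CPM in culture Eff+ libraries against 75.4 and 18.5 CPM in Eff- libraries 1 and 2, a fitted log2 fold change of -3.34. Cacnb3 (ENSMUSG00000003352, chromosome 15, 98528721 to 98542410, plus strand), a regulatory subunit of voltage-gated calcium channels, had 1.54 and 0.83 CPM in Eff+ against 48.0 and 10.7 CPM in Eff-. At -4.62 it had the most negative fitted value of the 10. Zfp366 (ENSMUSG00000050919, chromosome 13, 99321331 to 99387164, plus strand), a zinc finger protein of dendritic cells, had 1.00 and 0 CPM in Eff+ against 16.1 and 0.94 CPM in Eff-. The groups of Zfp366 overlapped, since Eff+ library 1 was above Eff- library 2.

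Among the cytokine pathway and surface genes the differences were unequal. Il2ra (ENSMUSG00000026770, chromosome 2, 11647618 to 11698004, plus strand), the alpha chain of the interleukin 2 receptor, had 2.08 and 0.083 CPM in culture Eff+ against 44.6 and 3.38 CPM in culture Eff-, a fitted log2 fold change of -4.46. Il4i1 (ENSMUSG00000074141, chromosome 7, 44465811 to 44490233, plus strand), a secreted amino acid oxidase, had 4 and 1 counts in Eff+ against 27 and 2 counts in Eff-, too few for the fit. Socs2 (ENSMUSG00000020027, chromosome 10, 95221224 to 95253042, minus strand) encodes a feedback inhibitor of cytokine receptors that act through STAT5. Socs2 had 15.1 and 26.2 CPM in Eff+ against 53.5 and 29.6 CPM in Eff-, and its fitted value of -1.01 was the closest to 0 of the 9. Cd83 (ENSMUSG00000015396, chromosome 13, 43938251 to 43956608, plus strand), a surface protein that stabilises MHC class II, had 42.4 and 21.9 CPM in Eff+ against 118 and 45.5 CPM in Eff-, a fitted value of -1.35. For Socs2 and Cd83 the Eff- library 2 stood just above the higher Eff+ library.

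Eff- library 1 set the size of several of these differences. Without it the fitted log2 fold change was still negative for all 9 genes fitted, but the median over them was -1.97, against -4.03 with all 4 libraries. Ccr7 was then at -3.48, Ccl22 at -3.51, Cacnb3 at -3.13 and Ccl17 at -2.42. Zfp366 was at -0.85, Il2ra at -1.60, Socs2 at -0.49 and Cd83 at -0.47. Within the libraries numbered 2 alone, after adding 0.5 CPM, the log2 ratio of Eff+ to Eff- was -5.33 for Ccr7, -5.52 for Ccl22, -3.07 for Cacnb3 and -0.18 for Socs2. The libraries numbered 2 had close numbers of detected genes, but they are part of the culture contrast on which the genes were chosen. Nothing is therefore read from the direction of these ratios. Each ratio rests on 1 library per group, and the column name of Eff+ library 2 is in doubt. The part of the difference in detected genes in the culture values was not tested.

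Low levels in Eff- library 1 need a further value beside them. There the median of 24 T cell, B cell, Langerhans cell and keratinocyte markers was 0.194 CPM per kilobase of gene length, against 0.0427 in culture Eff+ library 1 and 0 in both culture libraries numbered 2. Il4i1, at 0.297 CPM per kilobase in Eff- library 1, was the member nearest to that median. Zfp366 was at 2.52, Il2ra at 7.80 and Ccr7 at 48.9 CPM per kilobase in the same library. The part of that diffuse signal in the values of Il4i1 was not tested.

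Compared per kilobase, the order of the genes differed between the models. In culture Eff- libraries Ccl22 was highest at 95.2 and 53.2 CPM per kilobase, followed by Ccr7 at 48.9 and 20.9, Cd83 at 45.9 and 17.7, Ccl17 at 17.9 and 36.5 and Fscn1 at 25.0 and 6.16. Those 4 genes after Ccl22 overlapped over the 2 libraries. In the wound Cd83 stood alone, at 366 ± 137 CPM per kilobase in Eff+ and 751 ± 222 in Eff- libraries (SD, n = 3 each). Next came Ccr7, at 3.89 ± 1.84 in wound Eff+ and 5.27 ± 2.00 in wound Eff-, and Fscn1 at 2.51 ± 2.51 and 0.812 ± 0.551 in the same order. Ccr7 and Fscn1 overlapped in the Eff+ libraries. The remaining 7 genes had mean levels of at most 1.22 CPM per kilobase in the wound. Cd83 thus made up 95.2 to 99.3% of the summed CPM of the 10 genes in wound libraries, and 15.6 to 45.4% in culture libraries. The 2 tables were counted and scaled separately, so these levels are set side by side with no test.

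**Figure D2:**
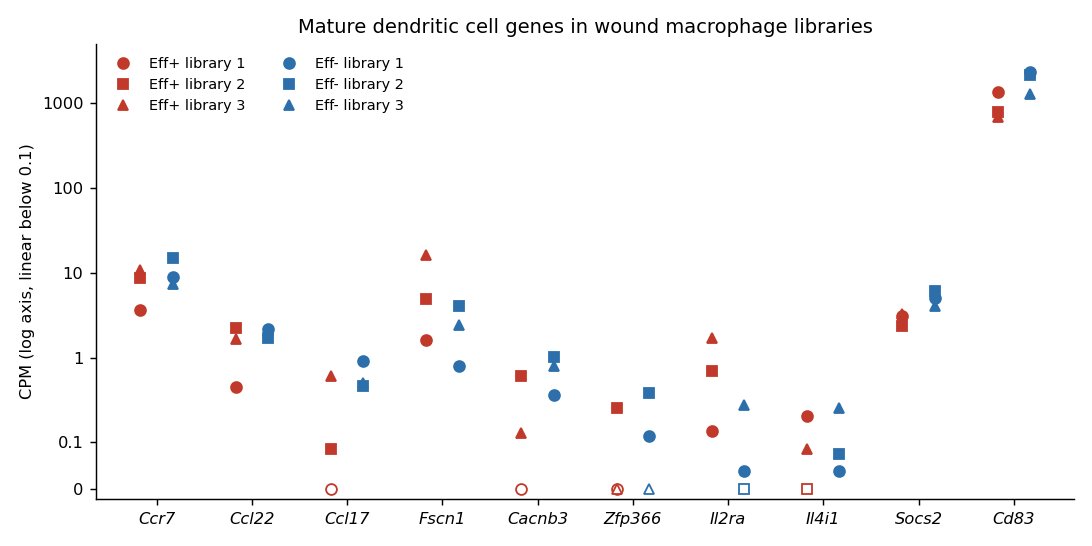
Level of each of the 10 genes in the 6 wound libraries, in CPM on a log axis that is linear below 0.1, with Eff+ libraries in red and Eff- libraries in blue; each point is 1 library and open symbols are levels of 0. Cd83 lay at 685 to 1344 CPM in Eff+ and 1279 to 2342 CPM in Eff-, and the other genes lay below 20 CPM.

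In the wound none of the 10 genes passed the test, and their values pointed in both directions. With edgeR's quasi-likelihood test (3 Eff+ against 3 Eff- libraries, adjusted p under 0.05 over all genes), 0 of 8 genes tested were called, where 11.2% of 14908 genes were. Socs2 and Cd83 had an unadjusted edgeR p under 0.05, as did 4454 of all 14908 genes. DESeq2 called 1 gene, Cd83, where it called 22.3% of all genes. The fitted value was negative for 6 genes and positive for 2. Zfp366, at 0 to 12 counts in Eff+ and 0 to 20 counts in Eff- libraries, and Il4i1, at 0 to 9 counts in Eff+ and 2 to 11 counts in Eff-, were too low to be tested.

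Cd83 had 1344, 795 and 685 CPM in wound Eff+ libraries 1, 2 and 3, against 2342, 2174 and 1279 CPM in wound Eff- libraries. Eff+ library 1 was just above Eff- library 3, so the groups overlapped. The log2 fold change was -1.04 (SE 0.33, edgeR adjusted p = 0.081). The adjusted p ran from 0.012 to 0.46 over the alternatives, with 0.016 under DESeq2, 0.023 with library totals as the only scaling and 0.042 without Eff+ library 1. With library totals the median log2 fold change of all genes was -0.42, against -0.03 with TMM, and that of Cd83 was -1.44.

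Socs2 was the only member whose wound groups did not overlap, as 18.1% of all genes tested did in the same direction. Socs2 had 3.07, 2.36 and 3.23 CPM in wound Eff+ libraries against 5.05, 6.11 and 4.08 CPM in wound Eff- libraries. Its log2 fold change was -0.81 (SE 0.33, edgeR adjusted p = 0.14; 0.045 with library totals as the only scaling).

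The homing receptor was low in the wound and overlapped between the groups. Ccr7 had 3.66, 8.70 and 10.7 CPM in wound Eff+ libraries against 8.98, 14.9 and 7.39 CPM in wound Eff- libraries (log2 fold change -0.44, SE 0.44, edgeR adjusted p = 0.55). Ccl22 had 0.45, 2.23 and 1.64 CPM in Eff+ against 2.19, 1.71 and 2.07 CPM in Eff- (-0.46, SE 0.62, edgeR adjusted p = 0.66). Eff+ library 1 was below every Eff- library for both genes. The other Eff+ libraries lay among the Eff- libraries for Ccr7, and for Ccl22 library 2 was just above and library 3 just below all of them. Ccl17 had 0, 4 and 28 counts in wound Eff+ against 46, 24 and 22 counts in wound Eff- libraries (edgeR adjusted p = 0.52). Cacnb3 had 0, 28 and 6 counts in Eff+ against 18, 54 and 35 counts in Eff- (edgeR adjusted p = 0.47).

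Fscn1 and Il2ra had positive values in the wound that did not pass. Fscn1 had 1.63, 4.97 and 16.1 CPM in wound Eff+ libraries against 0.79, 4.11 and 2.43 CPM in wound Eff- libraries (log2 fold change 1.63, SE 0.85, edgeR adjusted p = 0.25). Its value was 0.43 without Eff+ library 3, the library that was highest. Il2ra had 6, 32 and 80 counts in Eff+ against 2, 0 and 12 counts in Eff- libraries (log2 fold change 3.01, edgeR unadjusted p = 0.080, adjusted p = 0.22). Fibroblast markers (8 genes) summed to 732, 1429 and 2428 CPM in wound Eff+ libraries 1, 2 and 3 and to 205, 1137 and 617 CPM in wound Eff- libraries. Eff+ library 3 was thus highest for Fscn1 and for that sum. Their part in the Fscn1 values was not tested.

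**Figure D3:**
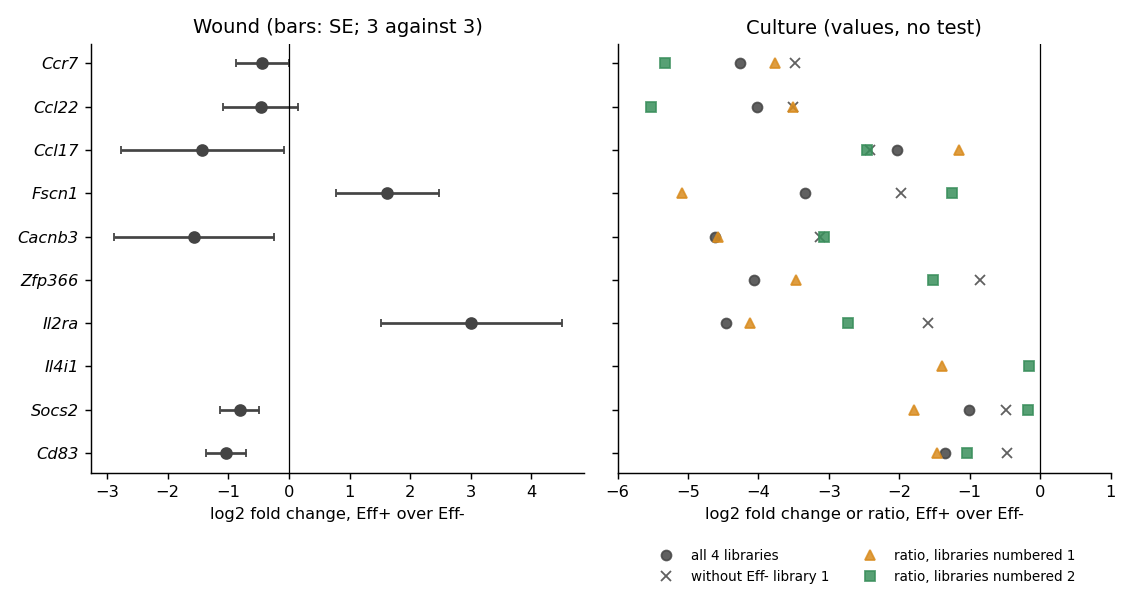
Log2 fold change of Eff+ over Eff- for each gene, on the left in the wound (points with SE, 3 against 3 libraries) and on the right in culture, fitted with all 4 libraries, fitted without Eff- library 1, and as the ratio within each replicate number after adding 0.5 CPM. Every culture value drawn is below 0, while wound values run from -1.57 for Cacnb3 to 3.01 for Il2ra.

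Promoter sequence is shown for the neighbouring chemokine genes and for Fscn1 and Il2ra, for each of which RefSeq (build GRCm38.p6) gives a start. It also gives starts for Cacnb3 and Il4i1, whose sequences are not shown. All 10 genes stood lower in culture Eff+ libraries, so that does not set these apart. RefSeq entries matched 6 of the 10 genes. Each sequence is the 250 bases before the annotated start on the plus strand: chr8:94745434-94745683 for Ccl22, chr8:94810203-94810452 for Ccl17, chr5:142960105-142960354 for Fscn1 and chr2:11642542-11642791 for Il2ra. Capitals mark matches, on either strand, to a kappa B-like pattern of NF-kB family proteins (3 G, then 5 bases of any kind, then 2 C) or to TTCNNNGAA, the pattern read by STAT proteins.
Ccl22: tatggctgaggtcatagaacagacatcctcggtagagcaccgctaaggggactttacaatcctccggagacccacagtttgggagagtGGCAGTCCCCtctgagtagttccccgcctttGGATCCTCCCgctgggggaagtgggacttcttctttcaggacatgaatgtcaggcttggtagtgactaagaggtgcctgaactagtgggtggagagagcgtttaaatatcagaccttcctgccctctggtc
Ccl17: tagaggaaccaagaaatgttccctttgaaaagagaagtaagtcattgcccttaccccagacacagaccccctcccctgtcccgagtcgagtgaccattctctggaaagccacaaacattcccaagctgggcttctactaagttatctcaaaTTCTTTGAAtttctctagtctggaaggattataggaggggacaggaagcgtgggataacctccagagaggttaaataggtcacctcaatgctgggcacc
Fscn1: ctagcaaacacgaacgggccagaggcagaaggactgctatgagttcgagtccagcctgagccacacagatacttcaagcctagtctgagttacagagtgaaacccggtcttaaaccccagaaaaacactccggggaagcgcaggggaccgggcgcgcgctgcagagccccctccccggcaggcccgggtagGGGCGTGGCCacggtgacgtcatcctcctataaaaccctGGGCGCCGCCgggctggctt
Il2ra: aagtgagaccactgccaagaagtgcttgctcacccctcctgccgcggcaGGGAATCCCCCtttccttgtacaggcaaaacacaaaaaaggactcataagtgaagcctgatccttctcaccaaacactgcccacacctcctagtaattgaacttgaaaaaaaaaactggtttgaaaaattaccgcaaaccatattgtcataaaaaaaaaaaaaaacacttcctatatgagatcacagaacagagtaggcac
The kappa B-like pattern was matched by 6 of the 7 promoters of these genes (Cacnb3 has 2 starts), against 45.8% of 32851 promoters. It had 2 separate matches in Ccl22 and in Fscn1, and 2 overlapping matches in Il2ra. TTCNNNGAA was matched only by Ccl17, against 7.02% of all promoters, and it overlapped no kappa B-like match. A match describes letters in this window and not a bound site.

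Most partner ligands and receptors had few or no counts. Ccl21b had 0 counts in all 10, Ccl21a had 3 counts in culture Eff- library 1 and none elsewhere, and Ccl19, the other CCR7 ligand, had at most 17 counts. Ccr4, the receptor of CCL17 and CCL22, had at most 4 counts in any wound library and 21 counts in culture Eff- library 1. Ackr4, a scavenger of CCR7 ligands, had at most 22 counts. Of the interleukin 2 system, Il2 had at most 10 counts and Il2rb, the beta chain, at most 90 counts, in wound Eff- library 2. Il2rg, the common gamma chain, was abundant at 146, 168 and 157 CPM in wound Eff+ against 162, 199 and 170 CPM in wound Eff- libraries. In the edgeR fit 0 of the 2 partners tested were called (0 at an unadjusted p under 0.05, 0 by DESeq2).

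Some other maturation genes rose in the wound. Of 44 further genes of dendritic cell maturation, 38 were tested, 14 rose and 1 fell in Eff+, where 7.39 and 3.79% of all genes rose and fell. Their median log2 fold change was 0.77, against -0.03 over all genes. With library totals as the only scaling 11 rose and 4 fell. Those with the smallest p were Ankrd33b (2.15, SE 0.23), Fas (1.82, SE 0.20), a death receptor gene, Samsn1 (1.86, SE 0.25), an adaptor gene, and Pdcd1lg2 (1.68, SE 0.25), which encodes the checkpoint ligand PD-L2. Fas, for example, had 363, 477 and 354 CPM in wound Eff+ against 99.6, 105 and 134 CPM in wound Eff- libraries. Cxcl16, a membrane-bound chemokine gene, fell by 0.82 (SE 0.17). Without Eff+ library 2, or without both libraries numbered 2, edgeR called none of the list and none of all genes (3260 and 2212 genes at an unadjusted p under 0.05). It called 9 of the list without Eff+ library 3, 8 without Eff- library 1 and 3 without Eff- library 2. Beside this rise stood neutrophil markers, of which 8 of 10 rose, with a sum of 18835 to 23602 CPM in wound Eff+ and 2422 to 4548 CPM in wound Eff- libraries. Their part in the values of the maturation genes was not tested.

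In culture most genes of the same list were lower in Eff+. The 10 genes were chosen as lower there, so the size of the change is not compared with theirs. Of 41 genes fitted, 26 were lower and 6 higher in Eff+ in both replicate numbers, where 23.8% of all genes were lower in both. The median fitted log2 fold change was -0.73, and -0.63 without Eff- library 1. The furthest were Nudt17 (-3.68), Apol7c (-3.47), Nr4a3 (-3.12), an orphan nuclear receptor gene, and Aldh1a2 (-2.54), which makes retinoic acid. Without Eff- library 1 these were at -2.19, -2.71, 0.00 and -2.43. Within the libraries numbered 2 alone Nr4a3 was at -0.91. With no filter 20 of all 44 genes of the list were lower in both numbers, against the 26 of 41 above.

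**Figure D4:**
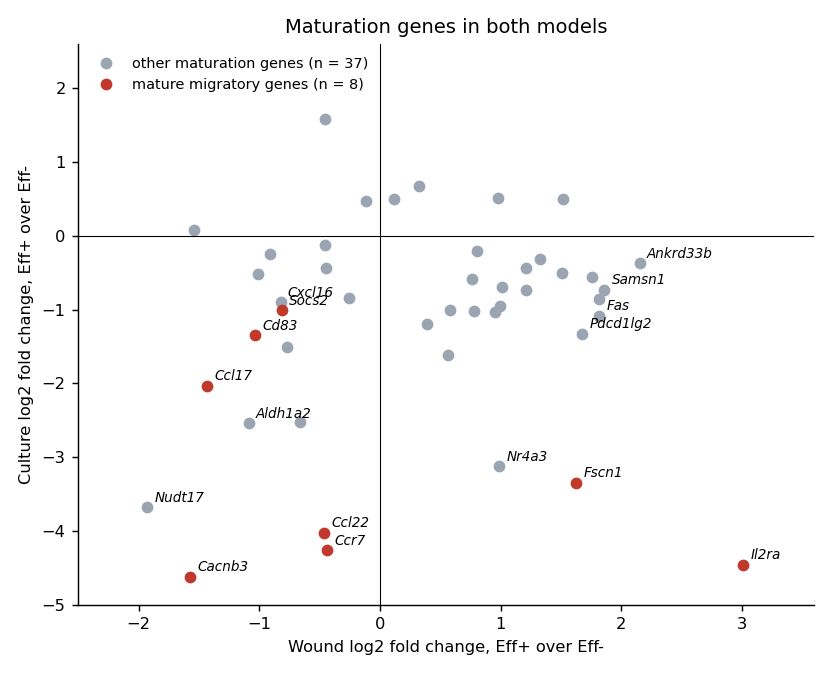
Fitted log2 fold change of Eff+ over Eff- in the wound (horizontal) and in culture (vertical) for the 8 mature migratory genes (red) and 37 other maturation genes (grey) fitted in both models; each point is 1 gene. Ankrd33b, Fas, Samsn1 and Pdcd1lg2 lie right of 0 in the wound and below 0 in culture, while Ccr7, Ccl22 and Cacnb3 lie at the bottom left.

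Dendritic cell identity was measured beside maturation. Of 19 conventional dendritic cell genes 18 were tested in the wound, where Jaml (log2 fold change 2.30, SE 0.50) and Cd24a (1.93, SE 0.43) rose and Clec10a (-1.17, SE 0.19) and Irf8 (-0.89, SE 0.19) fell. The share called was 22.2%, against 11.2% of all genes. In culture 12 of 18 genes fitted were lower and 2 higher in Eff+ in both numbers, where 23.8% of all genes were lower in both. The median was -1.41, but -0.15 without Eff- library 1. The furthest were Dpp4 (-3.28), Cd209a (-3.23), Itgae (-3.14) and Cbfa2t3 (-2.60), which without that library were at -0.03, -0.46, 2.58 and -0.29. Zbtb46, a transcription factor gene of conventional dendritic cells chosen here after its values were seen, had 9.74 and 2.49 CPM in culture Eff+ against 67.1 and 4.78 CPM in culture Eff-. Its fitted value was -2.55 with all 4 libraries and 0.39 without Eff- library 1. Higher in Eff+ in both numbers were Cadm1 (fitted value 1.63) and Batf3 (0.58).

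MHC class II genes were lower in Eff+ in both culture numbers for 10 of 10 genes, where 23.8% of all genes were. Their median was -1.24, and -0.40 without Eff- library 1. H2-Ob (-3.24), H2-DMb2 (-2.43), Ciita (-2.26), the master regulator of the class, and H2-Oa (-1.63) were the furthest. In the wound edgeR called 0 of the 10, with a median of -1.08. Of the 10, 6 had an unadjusted edgeR p under 0.05, as did 4454 of all 14908 genes. DESeq2 called 3, where it called 22.3% of all genes. With library totals as the only scaling 4 were called lower, as were 2654 of all 14908 genes. Of 11 GM-CSF receptor and STAT5 genes, Bcl2l1 (1.66, SE 0.21), Pim1 (1.33, SE 0.18) and Csf2rb (1.00, SE 0.17), the shared beta chain, rose in the wound and none fell, while Socs2 did not pass. The share called was 27.3%, against 11.2% of all genes. In culture 8 of those 11 were lower in Eff+ in both numbers, where 23.8% of all genes were. Their median was -0.39, and -0.15 without Eff- library 1. Jak2 (-2.13), Pim1 (-0.99), Csf2rb (-0.87) and Stat5a (-0.49) were the furthest, and without that library Pim1 was at 0.01 and Csf2rb at 0.49.

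**Figure D5:**
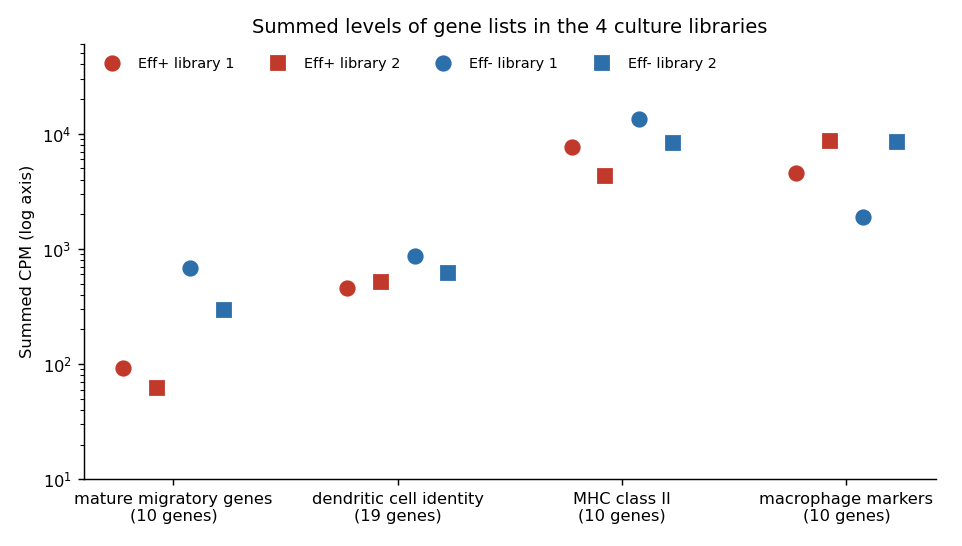
Summed CPM, on a log axis, of 4 gene lists in the 4 culture libraries, with Eff+ in red and Eff- in blue; each point is 1 library. The 10 mature migratory genes summed to 93.4 and 62.3 CPM in Eff+ and to 684 and 293 CPM in Eff-, while macrophage markers were lowest, at 1898 CPM, in Eff- library 1.

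Markers of other cells were read beside the culture values. Macrophage markers summed to 4538 CPM in Eff+ and 1898 CPM in Eff- among the libraries numbered 1, and to 8696 CPM in Eff+ and 8499 CPM in Eff- among those numbered 2. In the libraries numbered 2 the 10 mature migratory genes summed to 62.3 CPM in Eff+ and 293 CPM in Eff-. That is 1 library each, for genes chosen on the culture contrast, and the column name of Eff+ library 2 is in doubt. The part of cell composition in these values was not tested. Of 10 macrophage markers none was lower and 5 were higher in culture Eff+ in both numbers. Of all 14867 genes fitted, 3541 were lower and 3483 higher in both. The furthest of the markers were C1qa (0.88), Maf (0.79), C1qc (0.77) and C1qb (0.58). C1qa, C1qb and Maf were among 5 macrophage markers that fell in wound Eff+ libraries (-1.19, -1.22 and -1.15), and none rose. Of all genes tested in the wound 3.79% fell and 7.39% rose. Neutrophil markers in culture were lower in both numbers for 6 of 7 genes fitted, where 23.8% of all genes were. They were led by Ltf (-3.03), S100a9 (-2.44), Ngp (-2.06) and Csf3r (-1.62). In the wound S100a8 (2.62), S100a9 (2.64), Csf3r (2.20) and Ly6g (2.71) rose.

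Il2ra is also a gene of activated and regulatory T cells, so T cell markers were read beside it. Of the 10 markers only 2, the T cell receptor component gene Cd3e and the regulatory T cell gene Foxp3, had 0 counts in every wound library. In culture Eff- library 1, where Il2ra was highest at 44.6 CPM, none of the 10 markers had 0 counts. Their median there was 0.215 CPM per kilobase, against 0.078 in culture Eff+ library 1. It was 0.019 and 0.021 in culture Eff+ and Eff- libraries 2. The part of T cells in the Il2ra values was not tested. The 10 T cell markers summed to 31.4 to 75.2 CPM in wound Eff+ and 53.2 to 132 CPM in wound Eff-, and to 232 and 286 CPM in culture Eff+ against 70.1 and 130 CPM in culture Eff-. Most of that was Il7r and Cd28, which were higher in culture Eff+ (1.69 and 0.81), while Il2ra was lower there. In the wound edgeR called 0 of 5 T cell markers tested. Of these, 1 had an unadjusted edgeR p under 0.05, as did 4454 of all 14908 genes. DESeq2 called 1, where it called 22.3% of all genes. B cell markers (5 genes) stayed at 0.374 to 12.5 CPM in sum. Langerhans cell markers (Cd207 and Epcam) summed to at most 0.729 CPM in any wound library and to 4.17 CPM in culture Eff- library 1. Of 7 keratinocyte markers Krt14 and Krt5 rose in the wound. Krt14 had 10.4, 16.9 and 3.49 CPM in wound Eff+ and 0 counts in each wound Eff- library. Of 8 fibroblast markers Acta2 (2.27, SE 0.26) rose.

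The genes most like the mean of the 10 over the 10 libraries, each centred within its model, were Plekhg3 (Pearson's r = 0.95), Zfp740 (0.92), Arfrp1 (0.91), Map3k14 (0.90) and Eif4g3 (0.90), out of 10109 genes with a mean of at least 1 CPM in both models. Plekhg3 had 11.9 and 10.3 CPM in culture Eff+ against 26.8 and 17.9 CPM in culture Eff- libraries. Among the 10 themselves, r with their own mean ran from 0.66 for Socs2 to 0.96 for Cacnb3 and Ccr7. These points share libraries and depth, and Eff- library 1 had the highest culture level of each of the 5 genes, so the likeness is a description.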

How the data were processed

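Messenger RNA was sequenced from 10 libraries of sorted mouse macrophages. The authors deposited unnormalized gene-level read counts, made for the wound libraries with featureCounts 1.6.0 and the Ensembl release 106 annotation of GRCm39, per the file headers. That command sets neither strand nor read pairs, so overlapping antisense genes cannot be told apart and mates of a pair count separately. Counts of 1 to 100 were even in 70.6 to 74.5% of genes per wound library and 40.5 to 45.4% per culture library. The aligner, and how the culture libraries were counted, is not stated in the labels or headers read here; Trimmomatic 0.39 is named in the submitters' processing notes. A table column of gene length in bases, deposited with the wound counts, gave the per kilobase values. Another 4 columns of the culture table match no sample and were not used.

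GENCODE vM21 names matched 52081 of 55414 identifiers (99.91% of counts). Wound and culture libraries had separate fits in R 4.3.3 with edgeR 4.0.16 (TMM, filterByExpr, estimated dispersions, quasi-likelihood test of Eff+ against Eff-, no covariate), with Benjamini-Hochberg adjustment over all genes. Standard errors (SE) were derived from each fold change and its F statistic. The procedure was tested on simulated counts. Alternatives were relative log expression and totals-only scaling, no filter, DESeq2 1.42.0, newer quasi-likelihood settings, a replicate block and libraries left out; leaving out 1 culture library takes the spread of its remaining partner from the other group. Samples were grouped by title. Replicates differed by more than sampling noise (chi-square per degree of freedom 62.5 to 217), and the labels do not state separate mice or cultures; the spread behind the p-values may therefore be technical. The 10 genes and the gene lists were chosen with earlier results of these data known. Genes named were the 10, their partners, up to 4 called genes per list and direction in the wound, up to 4 of largest change per list with 1 sign in both culture numbers, and the 5 most alike.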

Additional observations from a re-analysis of the deposited data

Results flagged for a closer look

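For 9 genes named beside the 10, every Eff+ library lay on one side of every Eff- library in the wound and on the other side in culture. The difference between the models was not tested. In the wound 18.7% of all genes tested lay wholly above and 18.1% wholly below in Eff+. In culture 9.42% of all genes fitted lay wholly below. The share of all genes with opposite sides in the 2 models was not computed, so nothing is read from the count of 9. Higher in wound Eff+ and lower in culture Eff+ were Ankrd33b (log2 fold change 2.15 in the wound and -0.37 in culture), Pdcd1lg2 (1.68 and -1.33) and Jaml (2.30 and -2.10). The neutrophil markers S100a9 (2.64 and -2.44), Csf3r (2.20 and -1.62), Ltf (2.40 and -3.03) and Ngp (3.07 and -2.06) had the same pattern. Lower in wound Eff+ and higher in culture Eff+ were Cd28 (-1.90 and 0.81) and Maf (-1.15 and 0.79). None of the 10 mature migratory genes had either pattern. They were chosen as lower in culture Eff+, so only the form higher in wound Eff+ was open to them, and nothing is read from its absence.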

How the results depend on the processing

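In the wound edgeR called 1666 genes, against 3135 with DESeq2, 3368 with library totals as the only scaling (714 higher and 2654 lower, against 1101 and 565), 2985 with a replicate block, 0 without both libraries numbered 2 and 0 to 1347 with 1 library left out. Of the 10 genes 0 were called, against 1 with DESeq2, 1 with no filter, 1 with a replicate block, 2 with library totals only and 0 to 1 with 1 library left out; the gene was Cd83, joined by Socs2 with totals only. Of the other maturation genes 15 were called, against 0 without both libraries numbered 2 and 0 to 17 with 1 library left out. The culture median was -4.03 over the 9 genes fitted, and -1.97 to -4.44 with 1 library left out. With no filter it was -3.24 over 10 genes. That setting adds Il4i1 and also moves each of the 9 closer to 0, as for Ccr7 from -4.26 to -3.91. All 10 genes were lower in culture Eff+ in both numbers with no filter, and 9 of 9 fitted under the other scalings and added CPM. Of the other maturation genes 26 of 41 were, against 28 of 41 under each other scaling and 20 of 44 with no filter. Of the genes whose wound value was recomputed under every alternative, the 8 tested of the 10 among them, none changed direction.

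Same-numbered wound libraries deviated from their group means with correlations of 0.41, 0.02 and 0.23 and not every library correlated best with its own number. The labels state no pairs, so the main fit did not pair libraries. Both wound libraries numbered 2, and no others, had high Lyz2, at 159484 and 345046 counts against 160 to 413. Whether same-numbered libraries share a source was not tested, and several counts of called genes depend on that choice. With the block 8 of 10 MHC class II genes were called lower, against 0 without it, and 22 other maturation genes were called, against 15. It called 9 macrophage markers lower (5 without it, 10 with library totals only), 8 fibroblast markers higher (1 without it), 2 T cell markers lower (0 without it) and 8 dendritic cell identity genes (4 without it). With library totals only 1 partner gene, 1 B cell marker and 1 T cell marker were called lower, against 0. That scaling called 2654 of all 14908 genes lower, against 565 in the main fit. In culture the correlation was 0.74 for both numbers. With 2 libraries per group the 2 pairs must give the same value, so it counts as 1 value. The culture median of the 9 genes fitted was -4.36 with a replicate block. Depth limits Zfp366, Il4i1, Ccl17, Cacnb3 and Il2ra in the wound, where single libraries had 0 to 80 counts.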
